A study of Homo sapiens with 6 samples.

Results

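Human chromosome 19 carries the densest set of zinc finger genes in the genome, and these genes are described here in neuroblastoma cells with a hairpin against MYT1. The members are the protein-coding genes on chromosome 19 whose GENCODE 29 symbol is ZNF or ZFP followed by a digit. They number 252 of the 32434 gene IDs in the expression table. Of these, 84 lie on the short arm and 168 on the long arm. On hg38 the innermost short arm member, ZNF254, starts at 24033405 and the innermost long arm member, ZNF536, at 30228290, on either side of the centromere. On other chromosomes, 265 protein-coding genes carry the same kind of symbol.

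RNA from SK-N-BE(2), a human neuroblastoma cell line with MYCN amplification, was sequenced as 6 libraries. The 3 shMYT1 libraries come from cells infected with lentivirus carrying a short hairpin RNA against MYT1, which encodes a neural zinc finger transcription factor. The 3 shNC libraries come from cells with a control hairpin, so both groups carry a hairpin. The treatment notes give 24 h of infection and 48 h of puromycin selection and speak of a knockdown, whereas the genotype and design entries say knockout. The hairpin sequence, the number of hairpins and any cloning of cells are not stated in the labels. Whether replicates came from separate cultures is not said, so each p-value reflects the spread among these libraries, which may be technical.

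Most chromosome 19 zinc finger genes encode DNA-binding proteins built from tandem C2H2 fingers, in which a pair of cysteines and a pair of histidines hold a zinc ion. Many carry an N-terminal KRAB domain, which recruits the corepressor TRIM28 and, through it, histone methylation and heterochromatin proteins. They arose by repeated local duplication and lie side by side in clusters, and several are known to silence particular families of retrotransposons.

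To show what the fingers look like, 1 finger from each of 6 members is given. These are from the 3 largest falls on the short arm (ZNF730, ZNF429, ZNF266) and from 3 of the largest rises on the long arm (ZNF880, ZNF787, ZNF677), taking the first finger of standard spacing that is followed by the conserved linker. Each line is 78 bases of GENCODE 29 coding sequence on GRCh38, 5′ to 3′, and capitals mark the codons of the zinc-binding cysteines and histidines.
ZNF730: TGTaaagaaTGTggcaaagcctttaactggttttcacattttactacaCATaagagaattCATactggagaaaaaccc
ZNF429: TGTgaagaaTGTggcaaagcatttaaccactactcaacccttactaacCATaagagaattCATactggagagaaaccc
ZNF266: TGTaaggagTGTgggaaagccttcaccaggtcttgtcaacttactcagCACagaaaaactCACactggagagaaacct
ZNF880: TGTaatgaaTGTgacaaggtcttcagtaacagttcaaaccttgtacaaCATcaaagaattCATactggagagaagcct
ZNF787: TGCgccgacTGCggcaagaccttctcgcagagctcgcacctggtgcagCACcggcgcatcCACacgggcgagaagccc
ZNF677: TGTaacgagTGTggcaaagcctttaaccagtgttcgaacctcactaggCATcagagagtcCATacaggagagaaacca
The stretches lie at chr19:23145732-23145809 (plus strand) in ZNF730, chr19:21536744-21536821 (plus) in ZNF429, chr19:9414124-9414201 (minus) in ZNF266, chr19:52384220-52384297 (plus) in ZNF880, chr19:56088809-56088886 (minus) in ZNF787 and chr19:53237773-53237850 (minus) in ZNF677, each within 1 exon. Identity between the 9 pairs from different arms was 51.3 to 78.2% (median 67.9%), and between the 6 pairs from the same arm it was 61.5 to 82.1% (median 67.3%). All 6 hold the zinc-binding codons at the same positions and end in the linker, which the choice of fingers fixes. These bases count in the identity, and fingers of other genes were not compared. The identity therefore does not measure how related the members are. Fingers contact DNA through residues between the second cysteine and the first histidine.

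The label of the cell line was checked on 7 neuroblastoma genes (PHOX2A, HAND2, GATA3, ISL1, TH, DBH and MYCN), all at or above 1 FPKM. FPKM is the fragment count of a gene scaled to its exon length and to a library size. Their summed level was 2479 to 2578 FPKM in shMYT1 and 2873 to 3027 FPKM in shNC libraries. MYCN makes up most of this sum (averages of 1558 FPKM in shMYT1 and 1892 FPKM in shNC) and fell, as did TH and HAND2, whereas DBH and ISL1 rose. Of 8 fibroblast or smooth muscle genes (COL1A1, COL1A2, COL3A1, DCN, LUM, ACTA2, TAGLN and PDGFRB) 7 were at or above 1 FPKM, with summed levels of 118 to 121 FPKM in shMYT1 and 164 to 168 FPKM in shNC. LUM carries most of that difference (averages of 54.6 FPKM in shMYT1 and 97.7 FPKM in shNC), DCN and COL1A1 also fell, and ACTA2, TAGLN and COL3A1 rose. None of 3 blood genes (PTPRC, HBB and CD68) reached 1 FPKM. The part of these differences in the results on zinc finger genes was not tested. Fragments recovered from the FPKM summed over gene IDs to 18.16 to 20.3 M in shMYT1 libraries and 21.08 to 21.68 M in shNC libraries. These totals are not counts of all fragments sequenced. MYT1 itself averaged 4.23 ± 0.115 FPKM in shMYT1 and 5.34 ± 0.338 FPKM in shNC (SD, n = 3 each), and fell by 0.28 on the log2(FPKM + 1) scale (limma adjusted p = 0.0102). In bulk RNA, fewer cells of a kind and less RNA per cell cannot be told apart.

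The zinc finger genes of the short arm were lower, and those of the long arm higher, with the MYT1 hairpin. Summed over all 84 short arm members, the level was 211, 213 and 210 FPKM in shMYT1 replicates 1 to 3, against 250, 252 and 244 FPKM in shNC replicates 1 to 3. This is 211 ± 1.65 FPKM in shMYT1 and 249 ± 4.49 FPKM in shNC (SD, n = 3 each), a difference of -15.2%. Summed over all 168 long arm members, it was 347, 348 and 346 FPKM in shMYT1, against 274, 282 and 273 FPKM in shNC. That is 347 ± 0.574 FPKM in shMYT1 and 276 ± 5.27 FPKM in shNC (SD, n = 3 each), a difference of 25.5%. The groups do not overlap on either arm. The summed level of the long arm over that of the short arm was 1.65, 1.63 and 1.65 in the shMYT1 libraries, against 1.1, 1.12 and 1.12 in the shNC libraries.

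**Figure D1:**
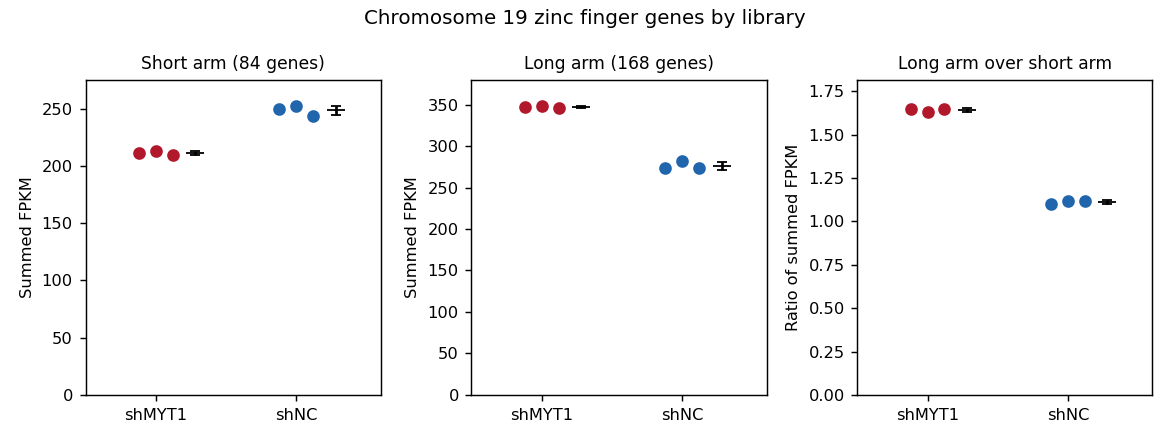
Summed FPKM of the 84 short arm members (left) and the 168 long arm members (middle), and the ratio of the long arm sum to the short arm sum (right), for each library (points) with the mean and SD of 3 libraries (black). All shMYT1 libraries lie below the shNC libraries on the short arm (on average 211 FPKM in shMYT1 and 249 FPKM in shNC) and above them on the long arm (347 FPKM in shMYT1 and 276 FPKM in shNC).

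Single genes were tested where the mean over the 6 libraries was at least 1 FPKM, which 64 short arm and 109 long arm members met. A fold change is the shMYT1 mean of log2(FPKM + 1) minus the shNC mean, which shrinks the change of low genes. A gene passed at a Benjamini-Hochberg adjusted p under 0.05 over all 14106 genes tested (limma). On the short arm 17 of 64 members fell, 0 rose and 47 did not pass. On the long arm 34 of 109 rose, 0 fell and 75 did not pass. Among all 14106 genes 11.9% rose and 12.3% fell. Falls on the short arm (26.6% of members) and rises on the long arm (31.2%) were thus more frequent than in the table as a whole. Calls in the other direction were at 0 on both arms. Other protein-coding genes were called more often than members, with 29.3% falling on the short arm and 70.9% rising on the long arm. At 1 to 10 FPKM, nearer the members' levels, these shares were 21.2% and 61.0%.

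Most members that did not pass lay on the same side as those that did. On the short arm 61 of 64 fold changes were below 0, with a median of -0.17 (quartiles -0.23 and -0.11, range -0.46 to 0.09). On the long arm 106 of 109 were above 0, with a median of 0.20 (quartiles 0.11 and 0.28, range -0.09 to 0.49). Over all genes tested the median was -0.005. As a ratio of mean FPKM with no pseudocount, the median member stood at -16.0% on the short arm and 24.0% on the long arm. The levels of the groups did not overlap and were lower in shMYT1 for 42 of 64 short arm members, against 21.8% of all genes. They did not overlap and were higher in shMYT1 for 65 of 109 long arm members, against 20.5% of all genes. No tested member had groups apart in the direction opposite to its arm.

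The counts depend on the libraries used, and the directions less so. Without shMYT1 replicate 1, 2 or 3, the short arm falls numbered 10, 10 and 8, and without shNC replicate 1 or 2 they numbered 8 and 7. The long arm rises numbered 18 without shMYT1 replicate 1, 22 without shMYT1 replicate 3 and 22 without shNC replicate 2. The medians without any 1 library stayed between -0.20 and -0.16 on the short arm and between 0.19 and 0.22 on the long arm.

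**Figure D2:**
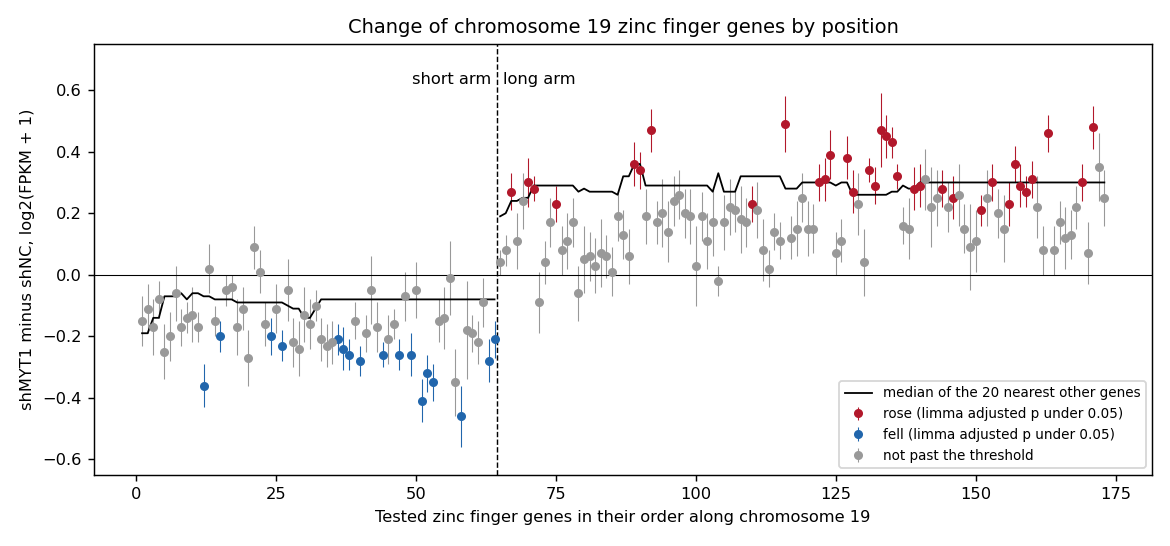
Change of each tested member (shMYT1 minus shNC, log2(FPKM + 1), with its standard error) in order along chromosome 19, coloured by whether it rose, fell or did not pass, with the median change of the 20 nearest other genes as a line. Points lie below 0 left of the centromere for 61 of 64 members and above 0 right of it for 106 of 109.

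The short arm members with the largest falls mostly came from the cluster next to the centromere. ZNF730 (ENSG00000183850, chr19:23075210-23147219, plus strand), a KRAB protein with 10 fingers, stood at 1.86, 1.94 and 1.80 FPKM in shMYT1 replicates 1 to 3 and at 3.42, 3.04 and 2.42 FPKM in shNC replicates 1 to 3. All shMYT1 values were below all shNC values, and the shNC values spread more widely. The fold change was -0.46 (SE 0.10, limma adjusted p = 0.0175), with an adjusted p of 0.0543 without shMYT1 replicate 1, 0.0563 without shMYT1 replicate 3 and 0.0629 without shNC replicate 2. ZNF730 shares exon bases with AC074135.1 on the same strand, so its fragments cannot all be assigned with certainty.

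ZNF429 (ENSG00000197013, chr19:21496682-21556270, plus strand), with KRAB and 15 fingers, had 1.61, 1.95 and 1.84 FPKM in shMYT1, against 2.62, 2.90 and 2.59 FPKM in shNC. It fell by 0.41 (SE 0.07, limma adjusted p = 0.00855), with groups apart, and its exons overlap LINC00664 and, on the opposite strand, AC123912.1. ZNF43 (chr19:21804949-21852125, minus strand), with KRAB and 19 fingers, had 4.51, 4.24 and 4.67 FPKM in shMYT1, against 5.98, 6.37 and 5.62 FPKM in shNC. It shares no exon bases with another gene and fell by 0.35 (SE 0.06, limma adjusted p = 0.00548). ZNF85 (chr19:20923222-20950697, plus strand), with KRAB and 15 fingers, had 4.57, 4.63 and 4.75 FPKM in shMYT1, against 5.73, 5.64 and 5.98 FPKM in shNC. Its groups are apart and it had the lowest adjusted p on the arm (fold change -0.26, SE 0.04, limma adjusted p = 0.00465).

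ZNF100 fell by 0.32 (2.93, 3.16 and 2.74 FPKM in shMYT1, against 3.88, 4.08 and 3.79 FPKM in shNC), ZNF486 by 0.28 and ZNF431 by 0.26 (limma adjusted p = 0.00899, 0.00964 and 0.0106). All 3 are KRAB genes of the same cluster with 9 to 12 fingers, and in each the groups are apart. ZNF266 (ENSG00000174652, chr19:9412461-9435578, minus strand), a KRAB gene with 12 fingers, is the only 1 of the 8 largest falls that lies outside this cluster. It had 7.20, 7.15 and 6.52 FPKM in shMYT1, against 10.0, 9.40 and 8.29 FPKM in shNC, and fell by 0.36 (limma adjusted p = 0.0125).

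**Figure D3:**
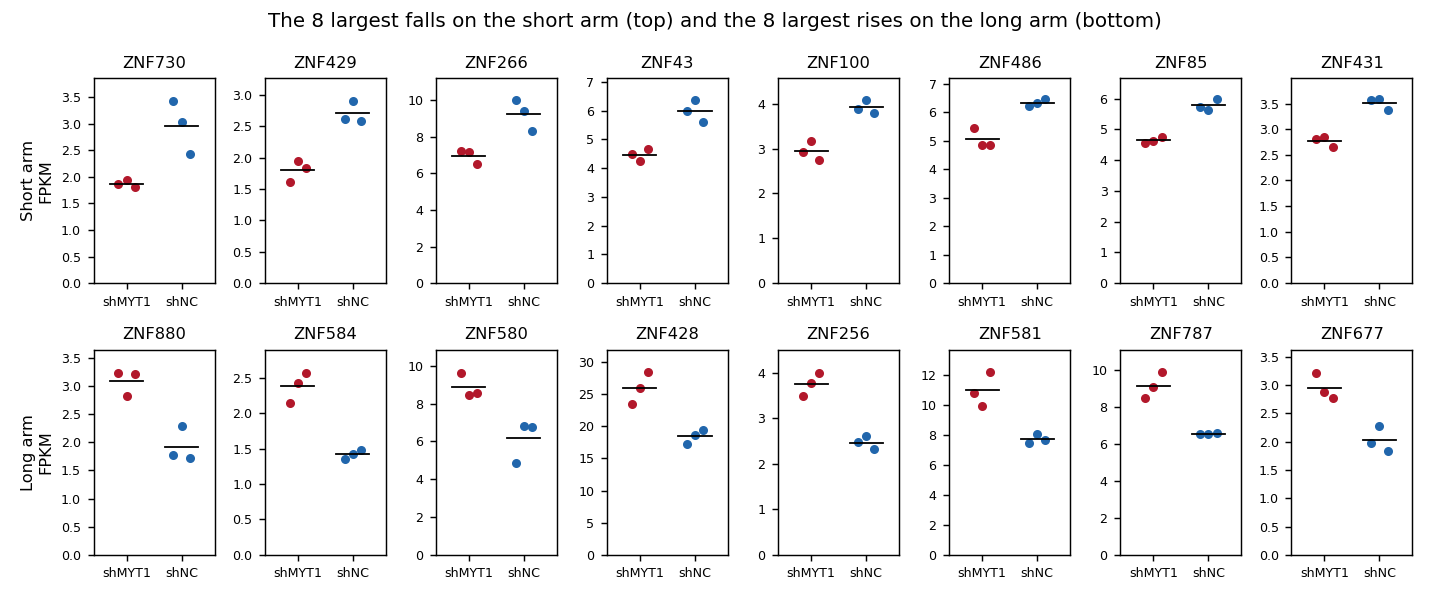
FPKM in each library (points) with the group mean (line) for the 8 short arm members with the largest falls (top) and the 8 long arm members with the largest rises (bottom), shMYT1 left and shNC right. In all 16 genes the 2 groups do not overlap.

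Some short arm members with known roles changed by less. ZNF93, which is known to bind and silence LINE-1 retrotransposons, had 2.85, 2.77 and 2.41 FPKM in shMYT1, against 3.16, 3.54 and 3.33 FPKM in shNC. It fell by 0.24 (limma adjusted p = 0.0393), and it did not pass when any 1 library was left out (adjusted p = 0.0588 to 0.124). ZNF91, a repressor of SVA retrotransposons with 31 fingers, had 2.54, 2.84 and 2.71 FPKM in shMYT1, against 3.36, 3.23 and 3.07 FPKM in shNC. Its groups do not overlap, but it did not pass (fold change -0.19, limma adjusted p just above the threshold), whereas it did in a fit with voom on the fragments recovered from the table (adjusted p = 0.00303).

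ZNF675, known as an inhibitor of TRAF6 signalling, had 2.07, 2.26 and 1.94 FPKM in shMYT1, against 2.70, 2.70 and 2.37 FPKM in shNC (fold change -0.22, limma adjusted p = 0.0649). With voom its adjusted p was 0.00766. ZNF208, which has the most fingers of all members (36), stood at 1.20, 1.16 and 1.14 FPKM in shMYT1, against 1.42, 1.38 and 1.42 FPKM in shNC, with groups apart (fold change -0.15, limma adjusted p = 0.170).

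The most abundant short arm members had fold changes of -0.26 to -0.20. ZNF358, the highest, had 16.0, 16.4 and 17.5 FPKM in shMYT1, against 17.5, 18.8 and 21.6 FPKM in shNC. Its groups are apart by less than the digits given, at 17.5 FPKM, and it did not pass (fold change -0.20, limma adjusted p = 0.104; with voom adjusted p = 0.0195). ZNF253 had 8.66, 8.59 and 8.46 FPKM in shMYT1, against 10.5, 10.4 and 9.34 FPKM in shNC, and fell by 0.21 (limma adjusted p = 0.0233). ZNF121 fell by 0.20 (8.63, 8.55 and 7.81 FPKM in shMYT1, against 10.1, 9.62 and 9.36 FPKM in shNC, limma adjusted p = 0.0284). ZNF738, in which the longest coding sequence holds a KRAB core and no finger, fell by 0.26 (8.80, 7.18 and 7.38 FPKM in shMYT1, against 9.40, 9.86 and 9.18 FPKM in shNC, limma adjusted p = 0.0438). Without shNC replicate 1 or 2 all 3 genes missed the threshold, with adjusted p of 0.0733 and 0.0820 for ZNF253, 0.0882 and 0.0793 for ZNF121, and 0.101 and 0.130 for ZNF738. They also missed it without shMYT1 replicate 2 (0.0593, 0.0509 and 0.112) or 3 (0.0694, 0.0646 and 0.122), ZNF253 without shMYT1 replicate 1 (0.0630), and ZNF738 without shNC replicate 3 (0.0717).

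On the long arm the largest fold change was that of ZNF880 (ENSG00000221923, chr19:52369917-52385795, plus strand), a KRAB gene with 13 fingers. It had 3.23, 2.83 and 3.21 FPKM in shMYT1 replicates 1 to 3, against 1.77, 2.28 and 1.72 FPKM in shNC replicates 1 to 3. All shMYT1 values exceeded all shNC values, and the gene rose by 0.49 (SE 0.09, limma adjusted p = 0.0102), a ratio of means of 1.61. It shares no exon bases with another gene. ZNF584, near the long arm telomere with KRAB and 8 fingers, had 2.14, 2.43 and 2.57 FPKM in shMYT1, against 1.35, 1.43 and 1.48 FPKM in shNC. It rose by 0.48 (SE 0.07, limma adjusted p = 0.0048), and its ratio of means, 1.68, was the highest among the called members.

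ZNF256 had 3.50, 3.79 and 4.01 FPKM in shMYT1, against 2.48, 2.61 and 2.32 FPKM in shNC, and rose by 0.46 (limma adjusted p = 0.003). ZNF787 (ENSG00000142409, chr19:56087366-56121280, minus strand), which has 7 fingers and no KRAB core, had 8.48, 9.07 and 9.88 FPKM in shMYT1, against 6.52, 6.51 and 6.57 FPKM in shNC. Its shNC libraries were nearly level, and it had the lowest adjusted p of all members (fold change 0.43, SE 0.05, limma adjusted p = 0.00246). ZNF677 had 3.22, 2.87 and 2.77 FPKM in shMYT1, against 1.97, 2.28 and 1.83 FPKM in shNC, and rose by 0.39 (limma adjusted p = 0.0141, and 0.0505 without shMYT1 replicate 1).

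A few compact long arm genes share transcribed sequence, and their values are uncertain for that reason. ZNF580 had 9.60, 8.45 and 8.53 FPKM in shMYT1, against 4.84, 6.83 and 6.78 FPKM in shNC, so that shNC replicate 1 stood lowest. It rose by 0.47 (limma adjusted p = 0.0303), with an adjusted p of 0.0616 to 0.0932 when any 1 shMYT1 library was left out. ZNF581 had 10.8, 9.97 and 12.2 FPKM in shMYT1, against 7.48, 8.09 and 7.66 FPKM in shNC, and rose by 0.45 (limma adjusted p = 0.00556). These neighbours share exon bases with each other and with CCDC106 on the same strand. ZNF428, a short protein with 1 finger, overlaps SRRM5 on the opposite strand, and whether the counting used strand is not stated. It had 23.4, 25.9 and 28.4 FPKM in shMYT1, against 17.3, 18.6 and 19.4 FPKM in shNC, and rose by 0.47 (limma adjusted p = 0.00562).

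ZNF146, a protein made almost wholly of fingers and the most abundant member, had 28.8, 28.8 and 26.8 FPKM in shMYT1, against 23.2, 23.4 and 22.1 FPKM in shNC. It rose by 0.28 (limma adjusted p = 0.00388), with ZNF565 overlapping it on the opposite strand. ZNF331, an imprinted gene, rose by 0.38 (3.23, 3.66 and 3.10 FPKM in shMYT1, against 2.31, 2.23 and 2.46 FPKM in shNC, limma adjusted p = 0.00855). The remaining rises, those outside the genes named so far, had fold changes between 0.21 (ZNF134) and 0.36 (ZNF574).

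ZNF274, which is known to bind the 3′ coding ends of other zinc finger genes and to recruit SETDB1 there, did not pass. It stood at 1.62, 1.70 and 1.59 FPKM in shMYT1 and 1.59, 1.30 and 1.33 FPKM in shNC, and the groups are apart by less than the digits given, at 1.59 FPKM (fold change 0.13, limma adjusted p = 0.255). ZFP36 is a member by its symbol only, since it encodes tristetraprolin, a CCCH finger protein that promotes mRNA decay, and no C2H2 finger was found in it. It had 2.22, 2.39 and 2.38 FPKM in shMYT1, against 2.06, 1.61 and 2.11 FPKM in shNC (fold change 0.19, limma adjusted p = 0.151). ZNF568, whose mouse counterpart represses a placental transcript of Igf2, was below the level tested. It stood at 0.775, 0.797 and 0.704 FPKM in shMYT1 and 0.617, 0.611 and 0.52 FPKM in shNC, with the groups apart.

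The sign of the change switched at the centromere. The short arm members nearest to it, ZNF254 and ZNF726, fell by 0.21 and 0.28 (limma adjusted p = 0.0483 and 0.0319). Both calls were lost when any 1 library was left out (adjusted p = 0.0526 to 0.140 for ZNF254 and 0.0567 to 0.111 for ZNF726). ZNF726 had 1.46, 1.26 and 1.35 FPKM in shMYT1, against 1.79, 1.99 and 1.80 FPKM in shNC. Across the centromere, ZNF536, known as a negative regulator of neuron differentiation, had 3.92, 3.92 and 4.19 FPKM in shMYT1, against 3.85, 3.80 and 3.92 FPKM in shNC (fold change 0.04, limma adjusted p = 0.509). ZNF507 had 3.93, 4.11 and 3.71 FPKM in shMYT1, against 3.83, 3.67 and 3.42 FPKM in shNC (fold change 0.08, limma adjusted p = 0.317). Neither long arm gene passed, and the 20 other genes nearest to them had median fold changes of 0.19 and 0.20.

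The members fall into 16 blocks when a new block begins wherever neighbouring starts lie more than 1 Mb apart, 5 on the short arm and 11 on the long arm. The block next to the centromere, ZNF101 to ZNF254 (chr19:19668796-24129961), holds 37 members, of which 32 were tested. In it 13 fell (40.6%, against 12.3% of all genes), all 32 fold changes were below 0 and the median was -0.21. The blocks ZNF557 to ZNF846 and ZNF653 to ZNF791, farther out on the short arm, had 2 falls among 13 and 2 among 14 tested members, with medians of -0.15 and -0.16. These shares, 15.4% and 14.3%, are close to the 12.3% of all genes that fell. The 4 tested members of the outermost block, ZNF554 to ZNF77, had a median of -0.13, and none passed.

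On the long arm the block nearest the telomere, ZNF628 to ZNF446, holds 60 members. Of its 46 tested members 21 rose (45.7%, against 11.9% of all genes), and all 46 fold changes were above 0 (median 0.25). In the block ZNF175 to ZNF331 6 of 23 tested members rose (26.1%, median 0.17). In the block ZNF565 to ZNF573 (chr19:36182060-37817300) 2 of 15 tested members rose, ZNF146 and ZNF529, and the median was 0.06. This share, 13.3%, is close to the 11.9% of all genes that rose. Its median is the lowest among long arm blocks with at least 3 tested members. The block holds ZFP82 (1.07, 1.27 and 1.03 FPKM in shMYT1 and 1.26, 1.47 and 1.09 FPKM in shNC) and ZNF829 (1.44, 1.13 and 1.21 FPKM in shMYT1 and 1.49, 1.29 and 1.27 FPKM in shNC). These are the members with fold changes of -0.09 and -0.06, and their groups overlap.

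**Figure D4:**
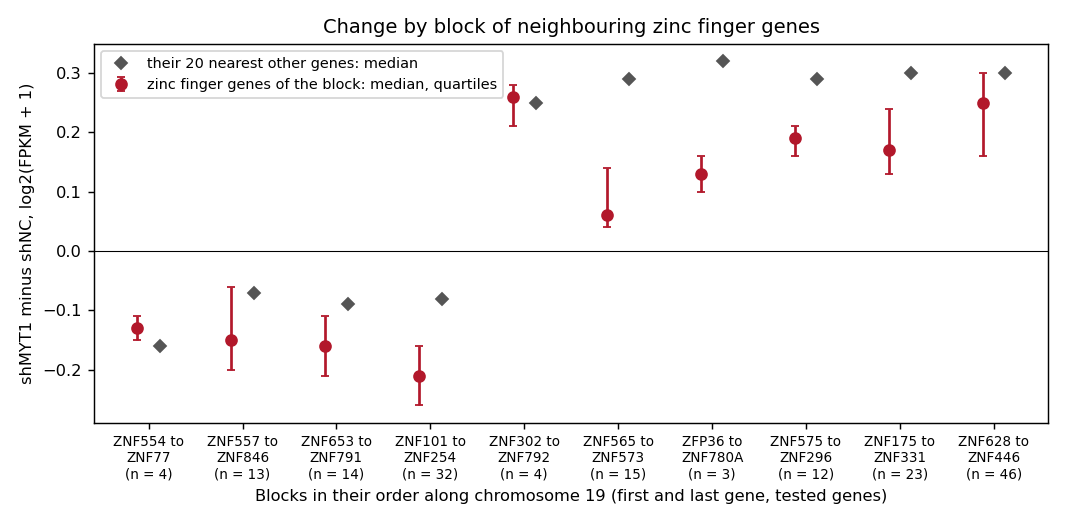
Median fold change (circle, with quartiles) of the tested members of each block with at least 3 of them, in order along chromosome 19, beside the median of the 20 nearest other protein-coding genes (diamond), as the shMYT1 minus shNC difference of log2(FPKM + 1). Block medians run between -0.21 and -0.13 on the short arm and between 0.06 and 0.26 on the long arm. There 5 of 6 lie under the median of their neighbours on this scale, which shrinks the change of low genes. As log2 ratios of means, ZNF628 to ZNF446 stood at 0.39 against 0.38 for its neighbours. The blocks starting at ZNF565 (0.12 against 0.35), ZFP36 (0.22 against 0.36), ZNF575 (0.28 against 0.34) and ZNF175 (0.32 against 0.35) still lay under theirs.

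Other genes of the same arms moved in the same direction. The members are lower in level, with a median of 2.49 FPKM on the short arm and 1.71 FPKM on the long arm, against 12.4 and 5.95 FPKM for the other genes. Of 324 other protein-coding genes tested on the short arm, 95 fell (29.3%) and 15 rose (4.63%). Their median fold change was -0.09 and their median ratio of means -7.28%. Of 275 on the long arm, 195 rose (70.9%) and 1 fell (0.364%), with a median fold change of 0.29 and a median ratio of 27.4%. The median log2 ratio of mean FPKM was -0.25 for short arm members and 0.31 for long arm members, against -0.09 and 0.36 for the other genes of 1 to 10 FPKM, nearer the members' levels. Of 224 zinc finger genes tested on other chromosomes, 13 rose (5.8%, against 11.9% of all genes) and 21 fell (9.38%, against 12.3%). Their median was -0.03, with 89 fold changes above 0 and 135 below 0, against 6905 above and 7201 below over all genes.

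**Figure D5:**
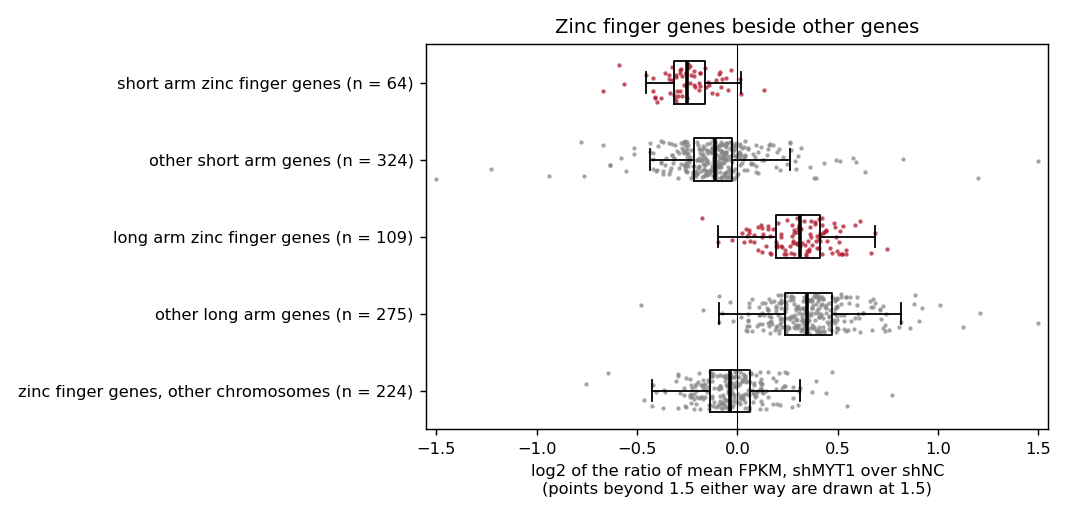
log2 of the ratio of mean FPKM, shMYT1 over shNC, for the tested members of each arm (red points), the other protein-coding genes of each arm and the zinc finger genes of other chromosomes (grey points), with boxes for the median and quartiles and whiskers to the farthest gene within 1.5 box lengths. The medians are -0.25 for short arm members, -0.11 for other short arm genes, 0.31 for long arm members, 0.35 for other long arm genes and -0.04 for zinc finger genes elsewhere.

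Each member was then set against the 20 nearest tested protein-coding genes of its arm that are not members. No limit was set on their distance, and neighbouring members can share the same genes. The cases counted are therefore not independent of each other. The short arm members lay below the median of their 20 nearest other protein-coding genes in 48 of 64 cases, with a median gap of -0.10 on the log2(FPKM + 1) scale and -0.14 as a log2 ratio of means. The long arm members lay below theirs in 85 of 109 cases, with a median gap of -0.10 on the log2(FPKM + 1) scale. That scale shrinks the change of low genes. As a log2 ratio of means the median gap of long arm members was -0.04. By that ratio 52 of 64 short arm and 69 of 109 long arm members lay below their neighbours. When that local median was removed from every gene of the table before the fit, 1 short arm member (ZNF486) still fell and 1 long arm member (ZNF428) still rose, while 1441 genes of the table rose and 1400 fell. The fold change after removal was -0.16 for ZNF486 (limma adjusted p = 0.0349) and 0.17 for ZNF428 (limma adjusted p = 0.0434).

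The same fit called 4 of 109 tested long arm members lower than their surroundings. This is a smaller share than the 1400 of 14106 genes that fell in the whole table. ZNF473, a component of the machinery that processes histone mRNA 3′ ends, had 2.11, 2.11 and 2.09 FPKM in shMYT1 and 2.06, 2.22 and 2.14 FPKM in shNC. The groups overlap, while the genes around it had a median fold change of 0.33, and after removal its fold change was -0.35 (limma adjusted p = 0.0104). ZNF616, with 21 fingers, had 2.85, 3.30 and 3.08 FPKM in shMYT1 and 3.05, 2.93 and 3.03 FPKM in shNC, and its fold change after removal was -0.31 (limma adjusted p = 0.0159). ZFP82 and ZNF829 were at -0.38 and -0.32 (limma adjusted p = 0.0479 and 0.0473).

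Calls were more frequent among members of higher level. Of short arm members with a mean of at least 2 FPKM 16 of 39 fell, and of those under 2 FPKM 1 of 25 did, while the median log2 ratio of means was -0.25 in both. Of long arm members at or above 2 FPKM 26 of 42 rose (61.9%), with a median log2 ratio of 0.36. Of those under it 8 of 67 rose (11.9%, against 11.9% of all genes), with a median log2 ratio of 0.29. Taken over every tested member and all 6 libraries, the median was 274 fragments on the short arm and 178 on the long arm.

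Members under 1 FPKM were not tested. They number 20 on the short arm and 59 on the long arm. Their summed level was 6.14, 6.13 and 6.12 FPKM in shMYT1 against 6.93, 6.74 and 7.34 FPKM in shNC on the short arm, and 41.5, 38.8 and 39.1 FPKM in shMYT1 against 32.5, 33.3 and 32.6 FPKM in shNC on the long arm. The groups of 25 of the long arm genes were apart with shMYT1 higher and of 1, ZNF610, with shMYT1 lower, out of 59. On the short arm 5 of 20 were apart with shMYT1 lower and 3 (ZNF556, ZNF98 and ZNF723) with shMYT1 higher. Of all 5448 protein-coding genes under this level and above 0 in a library, 14.4% were apart with shMYT1 higher and 10.1% with shMYT1 lower. ZNF98 had 0.609, 0.584 and 0.753 FPKM in shMYT1, against 0.184, 0.261 and 0.275 FPKM in shNC, 2.7 times the shNC mean, opposite in direction to its arm. It rests on 13 to 44 fragments a library, shares 23.7% of its 100-base words with other genes, most with ZNF492, and was chosen after its values were seen.

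Protein features were counted in the longest GENCODE 29 coding sequence of each member, with a C2H2 finger taken as C, 2 or 4 residues, C, 12 residues, H, 3 to 5 residues and H. The median was 12 fingers on both arms, with up to 36 on the short arm (ZNF208) and 29 on the long arm. A KRAB core was found in 77 of 84 short arm and 137 of 168 long arm members. Of tested KRAB members 16 of 57 fell on the short arm (28.1%, against 12.3% of all genes). On the long arm 22 of 86 rose (25.6%, against 11.9% of all genes). Of those without the core 1 of 7 fell on the short arm (14.3%, close to the share of all genes) and 12 of 23 rose on the long arm (52.2%). On the long arm the median log2 ratio of means was 0.31 with the core and 0.30 without it, and the median level was 1.57 FPKM with it and 3.25 FPKM without it.

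Neighbouring and duplicated genes can exchange fragments. Exon bases were shared with another gene by 43 short arm and 96 long arm members, and in 22 and 57 of these the partner is on the opposite strand. Besides those already noted, ZNF100, ZNF677, ZNF93, ZNF253, ZNF358, ZNF254, ZNF726, ZNF431 and ZNF536 are among them. Among members with no shared exon bases 8 of 32 tested fell on the short arm and 17 of 50 rose on the long arm, with medians of -0.18 and 0.21. At least 5% of their 100-base words occurred in another gene for 19 short arm and 35 long arm members, among them ZNF320, which shares 71.6% with other genes, most with ZNF468. Among the rest 16 of 56 fell on the short arm (28.6%) and 25 of 89 rose on the long arm (28.1%).

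Promoters of the members were read from RefSeq (GRCh38.p14) as 250 bases before and 50 after the start. This covered 73 short arm and 145 long arm members, with 1 window each. All RefSeq windows, used for comparison, were not reduced to 1 per gene or to protein-coding genes. The shares below thus come from unlike sets of windows. The consensus of the MYT1 family, AAAGTTT on either strand, occurred in 0 of 73 short arm and 1 of 145 long arm windows (0.69%), against 4.28% of all 35116 windows. Its core, AAGTT, which every AAAGTTT also contains, occurred in 24.7%, 26.2% and 34.0%. The E-box of MYC proteins, CACGTG, occurred in 0 of 73 short arm windows, 6.21% of long arm windows and 7.26% of all windows. Median GC content was 58.3% on the short arm, 61.0% on the long arm and 58.7% over all windows, with a median of 15, 23 and 14 CpG in the window.

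The 250 bases before the RefSeq start of the member with the largest fall and the member with the largest rise follow, on the plus strand, to show what these windows look like. Capitals mark a match to AAGTT on either strand, of which ZNF730 has 0 and ZNF880 has 1.
ZNF730: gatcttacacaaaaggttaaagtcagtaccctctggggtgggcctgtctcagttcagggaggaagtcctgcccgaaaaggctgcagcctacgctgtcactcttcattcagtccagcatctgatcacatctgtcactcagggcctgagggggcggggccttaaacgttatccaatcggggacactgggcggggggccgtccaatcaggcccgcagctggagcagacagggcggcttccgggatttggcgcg
ZNF880: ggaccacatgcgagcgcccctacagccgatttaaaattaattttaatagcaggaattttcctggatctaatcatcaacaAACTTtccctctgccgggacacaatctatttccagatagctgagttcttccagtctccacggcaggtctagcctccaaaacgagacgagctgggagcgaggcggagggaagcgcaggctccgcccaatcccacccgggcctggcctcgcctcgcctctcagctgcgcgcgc
They lie at chr19:23116775-23117024 for ZNF730, inside the GENCODE 29 gene because the RefSeq start is downstream of the GENCODE start, and at chr19:52369673-52369922 for ZNF880. GC content is 59.6% and 56.4%. A match is a run of letters, not a bound site, and binding was not analysed here.

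The partners through which KRAB proteins act were read as a list. Of 27 genes for TRIM28, its heterochromatin and methylation partners and related complexes, 5 rose (18.5%, against 11.9% of all genes) and 1 fell (3.7%, against 12.3%; limma), and the median fold change was -0.005, as over all genes. TRIM28, the KRAB corepressor, itself lies on the long arm of chromosome 19 (chr19:58544091-58550722), beyond the last member of the telomeric zinc finger block. It averaged 69.9 ± 2.32 FPKM in shMYT1 and 52.0 ± 2.22 FPKM in shNC (SD, n = 3 each), and rose by 0.42 (limma adjusted p = 0.000891), or by 0.13 once the local median was removed (limma adjusted p = 0.0301). SETDB1, the histone methyltransferase that TRIM28 recruits, averaged 11.9 ± 0.439 FPKM in shMYT1 and 11.8 ± 0.119 FPKM in shNC (SD, n = 3 each), and its groups overlap (limma adjusted p = 0.953). The maintenance DNA methyltransferase DNMT1, on the short arm, fell by 0.21 (38.2 ± 0.424 FPKM in shMYT1 and 44.3 ± 1.01 FPKM in shNC, SD, n = 3 each, limma adjusted p = 0.00276). MPHOSPH8, a subunit of the HUSH silencing complex on chromosome 13, rose by 0.26 (limma adjusted p = 0.0188), DNMT3A by 0.17 (limma adjusted p = 0.00647) and EHMT2 by 0.15 (limma adjusted p = 0.042).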

How the data were processed

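Total RNA from 6 libraries was measured. The authors deposited FPKM for each gene ID and library. The submitters' processing notes name HISAT2 2.0.5, featureCounts 1.5.0-p3 and hg38. Annotation, strandedness of counting and filtering: not given in the sources used here. GENCODE 29 supplied symbols, types and positions for 32301 IDs (99.59%). The median ratio to the mean library over 22101 genes agreed between libraries within 0.09%, so the values were used with no further scaling. The library size that the FPKM imply, 17.68 to 19.96 M in shMYT1 and 20.97 to 21.48 M in shNC, is below the total of recovered fragments in each library. The values thus appear to carry a scaling that no label records.

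Multiplied by exon length and divided by the step of 1 fragment, FPKM was whole to within 0.01 for 95.4% of these IDs, including 242 members. With voom on the fragments recovered in this way 4131 genes passed. A level of 3 fragments on 1 kb is 0.15 to 0.17 FPKM in shMYT1 and 0.14 to 0.143 FPKM in shNC, a limit for counting error alone.

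The 14106 genes whose mean reached 1 FPKM were fitted on log2(FPKM + 1) in limma 3.58.1 (R 4.3.3) with a trended prior variance, and two-sided p-values were adjusted by Benjamini-Hochberg. With 3 against 3 libraries an exact permutation test of 1 value cannot go below p = 0.1. Replicates differed by more than counting noise (chi-square per gene 1.91 to 3.3), and none were merged. Same-numbered libraries did not deviate together.

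The members, lists and tests were chosen with earlier results of these data known. Named were, per arm, the 8 largest rises and 8 largest falls among passing members with at least 2 FPKM in the higher group, the 4 most abundant members and the 2 nearest the centromere. MYT1, ZNF536, ZNF568, ZNF274, ZNF91, ZNF93, ZNF331, ZNF675 and ZFP36 were always named. Of the lists, TRIM28, SETDB1 and up to 4 passing genes with the largest changes were named. Other genes in the text are exceptions named after their values were seen. Amino acid features came from translated GENCODE 29 coding sequences, where a RefSeq protein table had been planned. Of the planned cell line markers, 1 is not reported here. The script was tested on simulated data. Alternatives varied pseudocount, filter, scaling, variance model, gene types, threshold, count model and replicate block, and omitted libraries in turn. Added after seeing the data were leaving out members with shared exon bases or shared sequence, and removing the local median.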

Additional observations from a re-analysis of the deposited data

How the results depend on the processing

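The arms kept their signs in every alternative but removal of the local median. There the long arm median was -0.10, the short arm median -0.07 and their difference 0.03 (reported: 0.20, -0.17 and -0.37). The calls were 1 short arm fall, 1 long arm rise and 4 long arm falls, since the shift of the surrounding genes is taken out. This fit is on log2(FPKM + 1), which shrinks the change of low genes. As a log2 ratio of means, the median gap to the nearest genes was -0.04 on the long arm and -0.14 on the short arm. ZNF146 (-0.003), ZNF536 (-0.13), ZNF507 (-0.11), ZNF274 (-0.19) and ZFP36 (-0.09) also changed sign there. Short arm falls (reported 17) and long arm rises (reported 34) numbered 8 and 21 with no filter, 35 and 54 among protein-coding genes only, 34 and 55 with voom, 5 and 11 at a threshold of 0.01 and 8 and 17 without members that share exon bases, where fewer genes enter. Equal FPKM totals gave 27 falls and a minimum of 3 FPKM 14 rises. With no filter 1 short arm member, ZNF98, rose. Leaving out single libraries gave 7 to 15 falls, 18 to 23 rises and 2038 to 3048 genes of the whole table (reported 3420, or 1494 at 0.01). It also gave medians of -0.20 to -0.16 on the short arm and 0.19 to 0.22 on the long arm. The short arm median was -0.24, -0.21 and -0.25 with pseudocounts of 0.1 and 0.5 and with voom. The long arm median was then 0.29, 0.24 and 0.31, and 0.15 with no filter, 0.30 at 3 FPKM and 0.17 with equal totals. The difference was then -0.53, -0.45 and -0.56, and -0.31 with no filter and -0.49 at 3 FPKM. SETDB1 changed sign with equal totals (-0.03) and without shMYT1 replicate 1 (-0.02) or shNC replicate 3 (-0.001), within a range of -0.02 to 0.02 when single libraries were left out. With the replicate number as a block, 15 short arm members fell and 25 long arm members rose, and the medians stayed at -0.17 and 0.20. The numbers share only a label, since same-numbered libraries correlated at 0.033, 0.013 and 0.043. Where no reason is given, the cause was not tested. Members under 2 FPKM seldom passed, and what depth adds to this was not tested.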

Other observations

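Zinc finger genes of chromosome 19 with other symbols were read as a further list, of which 13 were in the table and 7 were tested. MZF1, a SCAN domain zinc finger gene at the end of the long arm, had 2.98, 2.67 and 2.62 FPKM in shMYT1, against 1.88, 1.93 and 2.07 FPKM in shNC, and rose by 0.34 (limma adjusted p = 0.0102). ZBTB7A, a BTB domain zinc finger gene of the short arm, had 4.21, 3.99 and 4.03 FPKM in shMYT1, against 4.88, 4.81 and 5.46 FPKM in shNC, and fell by 0.25 (limma adjusted p = 0.0174). The other 5 tested genes did not pass. They include PEG3, an imprinted long arm gene, with 2.54, 2.65 and 2.28 FPKM in shMYT1 and 2.62, 2.74 and 2.60 FPKM in shNC, groups that overlap. ZFR2, a short arm gene under the level tested, had 0.464, 0.295 and 0.398 FPKM in shMYT1, against 0.799, 0.729 and 0.738 FPKM in shNC. The shares called, 14.3% risen and 14.3% fallen, are close to the 11.9% and 12.3% of all genes. Of the 7 tested genes only ZBTB7A lies on the short arm. PEG3, ZIK1, ZSCAN18, ZBTB45, MZF1 and HKR1 lie on the long arm. The median fold change of the 7 was 0.14, against -0.005 over all genes tested and 0.29 over protein-coding genes of the long arm other than members.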
